A study of Mus musculus and Mus musculus musculus x Mus musculus castaneus with 8 samples.

Results

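In nuclei of mouse embryonic fibroblasts (MEFs) transplanted into Xenopus laevis oocytes, 385 sites of open chromatin lay far from any called donor MEF peak. They were found again in a separate library of nuclear transfer (NT) with Toca1/Fnbp1l overexpression and overlapped no peak called from 50000 C2C12 myoblasts. They were chosen from the 8257 peaks of MEFs 48 h after NT in 3 steps. Of those peaks, 3146 (38.1%) lay at least 5000 bp, edge to edge, from every donor MEF peak and were called newly opened. Of the newly opened peaks, 520 (16.5%) overlapped a Toca1 peak by at least 1 bp, and 385 of the 520 (74.0%) were free of any overlap with the peaks of 50000 C2C12 cells. The 385 repeated sites were thus 12.2% of the newly opened peaks and 13.3% of the 2887 newly opened peaks without a C2C12 peak. Of all peaks after NT, 44.3% overlapped a Toca1 peak. When at least 50% of each peak had to overlap, 202 sites were left. These shares describe the values that chose the sites and were not tested. The 5 lists of the series held 151729 peaks in all.

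ATAC-seq uses a transposase that inserts sequencing adaptors into DNA free of tightly packed nucleosomes, so a peak marks a promoter, an enhancer or another site open to regulatory proteins. An immature amphibian oocyte holds large stores of chromatin and transcription factors, and a somatic nucleus transplanted into it switches transcription without dividing. Toca1, encoded by Fnbp1l, is a membrane-curving adaptor protein that promotes actin polymerization through the N-WASP and Arp2/3 machinery.

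The donor MEFs came from embryos of a cross of Mus musculus musculus and Mus musculus castaneus and were permeabilized for NT. The list after NT stands for 2 libraries from independent NT experiments, and the Toca1 list for 1 library from MEFs transplanted to oocytes that overexpressed Toca1. Each NT library held 3000 cells, collected 48 h after NT from 10 pooled oocytes in the control experiments. The donor list stands for 1 library of 3000 permeabilized MEFs. Cultured C2C12 myoblasts (strain given as C3h) were represented by 1 list from 50000 cells and 1 list from 1000 cells, each from 2 libraries, and the 1000-cell libraries were amplified without the purification kit used for the rest. All cells were lysed in buffer with Triton X-100. Each condition had 1 list of positions, without scores or read numbers, so no spread between replicates could be computed and the depth behind a peak is unknown. Toca1, the library and its depth cannot be told apart in any comparison of the lists after NT. The labelled cell types were not checked against marker genes. Intervals are 95% Wilson intervals for shares and order-statistic intervals for medians. They cover counting error over peaks only.

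The study's own annotation of newly opened peaks placed 54 of the 385 sites at promoters, and of 52 such genes looked up in RefSeq 42 (80.8%) had a promoter sequence. The 250 bases before the first RefSeq start are shown for 6 of them. Kit belongs to a list of pluripotency and germ cell genes, Ddx43 had the widest promoter site, Tdrd5 and Enah had long Toca1 peaks, and Pxt1 and Sypl2 held the E-box CACGTG. Capitals mark matches on either strand to 7 motifs. These were the nuclear receptor motif AGGTCA and AGATAA of GATA factors, CCAAT, bound by NFY, and the E-box above. The remaining ones were TGANTCA for AP-1, the octamer motif ATGCAAAT of POU factors and the GC box GGGCGG of Sp factors. In build GRCm38.p6 the windows are chr5:75574737-75574986 (+), chr9:78395527-78395776 (+), chr1:156303349-156303598 (-), chr1:182019981-182020230 (-), chr17:28942263-28942512 (-) and chr3:108226600-108226849 (-) in the order below. The peak lists are in mm9, so these positions are not those of the peaks. Sequences run 5′ to 3′ along the gene.
Kit: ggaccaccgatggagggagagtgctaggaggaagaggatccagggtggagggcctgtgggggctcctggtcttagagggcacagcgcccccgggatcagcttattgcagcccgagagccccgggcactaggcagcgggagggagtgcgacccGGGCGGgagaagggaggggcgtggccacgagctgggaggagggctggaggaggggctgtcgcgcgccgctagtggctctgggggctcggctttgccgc
Ddx43: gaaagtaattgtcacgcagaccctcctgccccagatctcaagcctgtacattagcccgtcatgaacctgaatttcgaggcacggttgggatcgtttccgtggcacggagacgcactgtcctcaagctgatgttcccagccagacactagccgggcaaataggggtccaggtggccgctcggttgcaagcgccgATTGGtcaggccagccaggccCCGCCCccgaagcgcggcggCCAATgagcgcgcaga
Tdrd5: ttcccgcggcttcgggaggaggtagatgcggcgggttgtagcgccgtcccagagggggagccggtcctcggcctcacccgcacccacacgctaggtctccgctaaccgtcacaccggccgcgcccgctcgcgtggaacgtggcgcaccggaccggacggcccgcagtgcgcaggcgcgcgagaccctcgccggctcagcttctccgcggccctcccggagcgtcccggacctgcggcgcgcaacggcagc
Enah: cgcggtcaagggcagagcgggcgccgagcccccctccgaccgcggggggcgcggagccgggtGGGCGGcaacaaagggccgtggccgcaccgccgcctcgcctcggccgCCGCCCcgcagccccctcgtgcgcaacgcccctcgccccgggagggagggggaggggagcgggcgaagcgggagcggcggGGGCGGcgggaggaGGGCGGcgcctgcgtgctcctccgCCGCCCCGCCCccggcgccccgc
Pxt1: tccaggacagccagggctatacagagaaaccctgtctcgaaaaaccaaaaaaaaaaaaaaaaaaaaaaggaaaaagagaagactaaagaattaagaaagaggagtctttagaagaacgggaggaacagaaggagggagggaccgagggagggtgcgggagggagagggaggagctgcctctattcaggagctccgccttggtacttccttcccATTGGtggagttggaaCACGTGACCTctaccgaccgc
Sypl2: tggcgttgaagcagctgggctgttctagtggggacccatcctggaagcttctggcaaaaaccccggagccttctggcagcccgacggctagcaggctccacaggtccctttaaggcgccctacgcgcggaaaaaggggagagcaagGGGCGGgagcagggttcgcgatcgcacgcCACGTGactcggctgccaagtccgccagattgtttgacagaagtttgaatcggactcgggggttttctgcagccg

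The Enah window was the richest in GC boxes of the 6, with 6 matches, and that of Tdrd5 held none of the 7 motifs despite 40 CpG dinucleotides. In Pxt1 the E-box shared bases with an AGGTCA match on the other strand. Over the 42 promoters, the median G+C content was 64.8% and the median number of CpG dinucleotides 18, against 52.0% and 6 over the 27025 RefSeq promoters. A GC box stood in 30 of 42 (71.4%, interval 56.4% to 82.8%), against 32.9% of all promoters. The E-box stood in 9 of 42 (21.4%, 11.7% to 35.9%), against 6.05%. For the other motifs the interval held the share of all promoters. CCAAT was in 9 of 42 (21.4%, 11.7% to 35.9%, against 34.5%), AGGTCA in 3 (7.14%, 2.46% to 19%, against 13.8%) and AGATAA in 1 (2.38%, 0.422% to 12.3%, against 10.3%). TGANTCA and ATGCAAAT were in 0 of 42, where a Wilson interval reaches 8.38%, against 6.87% and 1.61% of all promoters. Among promoters with at least 12 CpG dinucleotides, the GC box share was close in both sets (78.8% of 33 and 72.2% of 9143). The E-box was in 6 of those 33 (18.2%, 8.61% to 34.4%), an interval that held the 9.88% of all such promoters. The 9 genes with an E-box were 5730409E04Rik, Aqp5, Cnnm1, Fam163a, Ntpcr, Ppp1r3c, Pxt1, Slc37a3 and Sypl2. A match is a description of these letters and not a bound site.

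One promoter site belonged to a microRNA gene, Mir128-2, which encodes a member of the miR-128 family that is abundant in brain. It was picked after its values were seen. The site was 200 bp wide after NT and 277 bp with Toca1. RefSeq places the mature arms at chr9:112118644-112118664 and chr9:112118679-112118701 of GRCm38.p6, on the minus strand. They are shown with the seed, bases 2 to 8, in capitals.
mmu-miR-128-3p: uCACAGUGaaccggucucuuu
mmu-miR-128-2-5p: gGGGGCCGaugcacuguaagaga

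The repeated sites were wider after control NT than the newly opened peaks that were not found again. Their median width was 296 bp (280 to 311), from 150 to 942 bp with quartiles of 233 and 400 bp. The 2502 newly opened peaks that overlapped neither a Toca1 nor a C2C12 peak had a median of 234 bp (231 to 237). The 135 newly opened peaks shared with both Toca1 and C2C12 had a median of 352 bp (313 to 373), and the 3873 peaks on donor peaks 376 bp (370 to 383). Of the repeated sites 97 (25.2%) were at least 400 bp wide, against 7.51% of the 2502. Read the other way, the share found with Toca1 rose with width in each of the 6 classes, from 5.10% (3.69% to 7.01%) of 686 peaks under 200 bp to 48.5% (38.8% to 58.3%) of 97 peaks of 500 bp or more. Width was not a criterion of the rule, but a wider peak more easily shares at least 1 bp with a Toca1 peak by construction. How much of the difference in width comes from this was not tested. Width is the only measure of the size of a peak in the lists.

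The widest repeated sites were a mixed set of genes and distal sites. The site in Ern1, the IRE1 sensor of the unfolded protein response, was 942 bp wide after NT and 788 bp with Toca1. A distal site nearest to the homeobox gene Dlx4 followed with 900 and 492 bp. The site nearest to Sap18, a subunit of Sin3 histone deacetylase complexes, measured 719 and 685 bp. In these 3 the Toca1 peak was the narrower. The promoter site of Ddx43, a germ-line RNA helicase, was 691 bp wide after NT and 724 bp with Toca1. The site in Col23a1, a transmembrane collagen, was 680 and 757 bp wide, and that nearest to Pck1, the gluconeogenic enzyme PEPCK, 664 and 557 bp. The promoter site of 5730409E04Rik was 680 and 795 bp wide. For 3 wide sites the study's annotation was not held here, so whether they lie in genes is unknown. Of these, chr9:60560610-60561308 measured 699 and 610 bp and chr4:136604317-136604978 measured 662 and 723 bp. The remaining one, chr5:118115883-118116559, was 677 bp wide after NT and met a Toca1 peak of only 186 bp. The 10 widest sites thus kept a peak of similar width in 8 cases, and were less than 0.6 times as wide with Toca1 at Dlx4 and on chromosome 5.

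Across all 385 sites the overlapping Toca1 peak was usually the wider one. Its median width was 496 bp, from 164 to 1778 bp, and the median ratio of Toca1 to control width was 1.52 (1.36 to 1.67). Of the pairs 288 (74.8%) were wider with Toca1, 87 narrower and 10 equal, and 134 (34.8%) were at least 2 times as wide. The same ratio was 1.75 (1.71 to 1.79) at the 2795 donor-shared peaks found with Toca1 and 1.78 (1.5 to 2.07) at the 135 sites shared with C2C12. Thus the gain in width was not larger at the repeated sites than at peaks that were open in the donor. Peaks of the Toca1 list were wider as a whole, with a median of 467 bp against 291 bp in the control list.

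**Figure D1:**
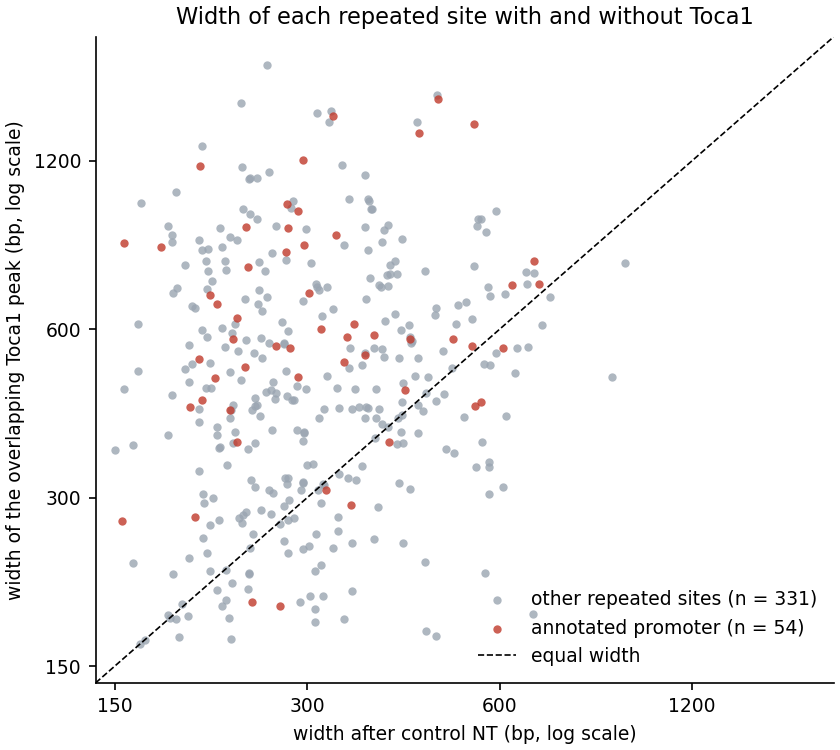
Width of each of the 385 repeated sites after control NT (horizontal axis, bp, log scale) against the width of the overlapping Toca1 peak (vertical axis, bp, log scale), with 54 annotated promoters in red, 331 other sites in grey and a dashed line at equal width. Most points lie above the line: 288 sites were wider with Toca1 and 87 narrower, and 46 of the 54 promoter sites were wider.

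The 10 longest Toca1 peaks lay over sites of 236 to 547 bp after control NT. The longest, 1778 bp, covered a site of 260 bp at chr6:115312223-115312482, for which no annotation was held. The Toca1 peak nearest to Gas7, a growth-arrest gene that shapes the actin cytoskeleton, was 1571 bp long over 479 bp. At the promoter of Ephx4, an epoxide hydrolase relative, it was 1548 bp over 481 bp. A peak in the gene body shared by Cpne1, a copine, and Rbm12, an RNA-binding protein, was 1476 bp over 327 bp. At the promoter of Tdrd5, a Tudor protein that silences retrotransposons in male germ cells, it was 1444 bp over 329 bp. It was 1410 bp over 445 bp in Egr4, a zinc-finger transcription factor, and 1409 bp over 324 bp in Acvrl1, a BMP receptor of endothelial cells. At the promoter of Enah, an actin-filament elongation factor, the peak was 1399 bp over 547 bp. The remaining 2 of the 10 longest, on chromosomes 7 and 9, measured 1522 over 236 bp and 1459 over 311 bp. No annotation was held for them either. All 10 were more than 2.5 times as wide as the control peak, which is what ranking by Toca1 length favours.

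The sites were chosen for overlapping a Toca1 peak, and the positions within the pairs are given as a description. The centres lay a median of 99.0 bp apart, within 100 bp in 194 pairs (50.4%). The Toca1 peak covered a median of 93.0% of the site, held it entirely in 159 cases (41.3%), lay inside it in 28 and overlapped it in part in 198. At the donor-shared pairs the median offset was 123 bp, the median share covered 100% and the share held entirely 53.1%. The overlap was under 50 bp in 9 pairs and 10 bp in the smallest, a gene-body site of Sema7a at chr9:57788478-57788912. Just outside that limit, a peak at chr14:60232737-60232901 missed the nearest Toca1 peak by 10 bp. The 385 sites met 382 different Toca1 peaks. In 3 cases 1 Toca1 peak spanned 2 sites: a peak of 1116 bp near Grb7 over sites of 250 and 244 bp, and peaks of 796 and 706 bp on chromosomes 8 and 9. At 2 sites, chr5:124699077-124699603 and a distal site of 478 bp nearest to Sc5d, 2 Toca1 peaks met 1 control peak. Of the 382 Toca1 peaks, 378 themselves lay at least 5000 bp from the donor peaks and 15 overlapped a C2C12 peak of the 50000-cell list.

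At 8 of the 385 sites (2.08%, 1.06% to 4.05%) the Toca1 peak had exactly the same start and end as the control peak. Among the donor-shared peaks found with Toca1 this held for 4 of 2795 (0.143%, 0.0557% to 0.367%), and among the newly opened peaks shared with both Toca1 and C2C12 for 4 of 135 (2.96%, 1.16% to 7.37%). Of the peaks after NT on a donor peak, 0 of 3873 were identical to it, and 3 of 4175 on a peak of the 50000-cell C2C12 list were identical to that one. The identical sites were at or nearest to Oprm1, Chst11, Olfr741, Sorcs1, Tle1, A430085M09Rik, Fry and Chordc1, and were named after their values were seen. They were 164 to 422 bp wide. Of these, 5 lay at least 100000 bp from any donor peak: those nearest to Olfr741 (318 bp wide, 340987 bp away), Sorcs1 (422 bp, 174822 bp away), A430085M09Rik (401 bp, 537599 bp away), Fry (167 bp, 220243 bp away) and Chordc1 (183 bp, 303969 bp away). They were 5 of 27 sites at that distance (18.5%, 8.18% to 36.7%), against 3 of 358 nearer sites (0.838%, 0.285% to 2.43%). The cause of the identical edges was not tested, and whether these sites are repeats of open chromatin is therefore not known. Without the peaks after NT that were identical to a Toca1 peak, a setting chosen after seeing the data, 377 sites were left, 13.1% of the newly opened peaks without a C2C12 peak.

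Promoter peaks of the study's annotation were found again with Toca1 more often than other newly opened peaks. This class came from the study's list of genes that gained a peak after NT and had none in donor MEFs. A promoter peak of a gene with a donor peak therefore counted among the others. Of 146 newly opened promoter peaks without a C2C12 peak, 54 overlapped a Toca1 peak (37.0%, 29.6% to 45.1%). For all other newly opened peaks without a C2C12 peak the count was 331 of 2741 (12%, 10.9% to 13.3%). When overlap had to be reciprocal and at least 50%, the shares were 14.4% (9.60% to 21.0%) and 6.60% (5.73% to 7.60%). Gene bodies (42 sites, 14.2%), intergenic peaks (142 sites, 11.9%) and other peaks overlapping a gene (88 sites, 12.2%) had like shares, and of the rest 53 sites had no annotation held here and 6 lay near a start. The gap was present within each class of width. Under 250 bp the shares were 33.9% of 56 (22.9% to 47.0%) and 7.14% of 1555 (5.96% to 8.53%), and from 250 bp to under 400 bp 32.8% of 64 (22.6% to 45.0%) and 14.8% of 927 (12.6% to 17.2%). From 400 bp on they were 53.8% of 26 (35.5% to 71.2%) and 32.0% of 259 (26.7% to 38.0%), with intervals that overlap. Among newly opened peaks that did overlap a C2C12 peak, 59.5% of 79 promoter peaks (48.5% to 69.6%) and 48.9% of 180 others (41.7% to 56.1%) were found with Toca1, again with overlapping intervals. The median ratio of widths was 2.03 (1.62 to 2.56) at promoter sites, 1.58 (1.26 to 2.13) in gene bodies and 1.33 (1.17 to 1.65) at intergenic sites, and the intervals of promoter and intergenic sites overlapped slightly. The widths of promoter and intergenic sites after control NT were alike, at 293 and 308 bp, and their Toca1 peaks had medians of 580 and 467 bp.

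**Figure D2:**
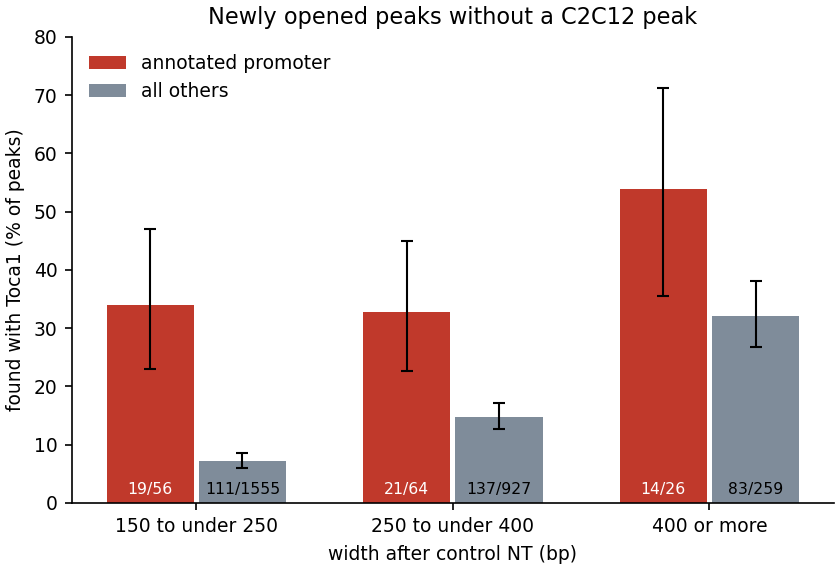
Share of newly opened peaks without a C2C12 peak that overlapped a Toca1 peak (vertical axis, percent), by width after control NT (horizontal axis, bp), for annotated promoters (red) and all others (grey), with 95% Wilson intervals over peaks as error bars and counts in the bars. Promoter bars stand above the others in all 3 classes, at 33.9% against 7.14% under 250 bp, and the intervals overlap only from 400 bp on.

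After Ddx43 and 5730409E04Rik, the widest promoter site was that of Myb, a transcription factor of blood progenitors, at 628 bp after NT and 721 bp with Toca1. Next came Atad5, which unloads the replication clamp PCNA from DNA, at 607 and 555 bp. Aqp5, a water channel of secretory glands, had 561 and 444 bp and was among the 3 sites nearest to a donor peak, at 5009 bp. Slc37a3, a sugar-phosphate transporter relative, had 550 bp after NT and 438 bp with Toca1 at its promoter and 461 bp in both lists at a gene-body site. Sypl2, a synaptophysin relative of skeletal muscle, had 544 and 561 bp, and Rftn1, a lipid-raft protein of B cells, 507 and 576 bp. Of similar control width, Enah (547 and 1399 bp) and Ephx4 (481 and 1548 bp), given above, and 1700039E22Rik (448 and 1347 bp) had Toca1 peaks at least 2.56 times as wide. Ntpcr, a nucleotide triphosphatase, had 426 and 467 bp. Plekho1 had 382 and 586 bp, and Mfsd6l, of a transporter superfamily, 369 and 539 bp.

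Of the narrower promoter sites, those named next were chosen after their values were seen, and no test of any group was made. Among transcription factors, the site of En2, a hindbrain homeobox gene, was 241 bp wide after NT and 913 bp with Toca1. Atoh7, needed for retinal ganglion cells, had 240 and 513 bp, and Bhlha15, of secretory cells, 203 and 530 bp. Among secreted ligands, Areg, an EGF receptor ligand, had 278 and 826 bp, Wnt9b 342 and 524 bp, Bmp3 227 and 431 bp and Fgf22 233 and 377 bp. Ina, a neurofilament protein, had 333 and 884 bp, and Kcng3, a potassium channel subunit, 279 and 1004 bp. Ezh1, a Polycomb histone methyltransferase, had 290 and 492 bp. The protease inhibitor gene Spint1 had the steepest ratio of the 54, 5.76, with 204 and 1176 bp.

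Of 30 listed pluripotency and germ cell genes, 1 had a repeated site at or in the gene: Kit, the receptor of stem cell factor in germ cells, blood progenitors and melanocytes. Its promoter site, chr5:75970814-75971059, was 246 bp wide after NT and 195 bp with Toca1, 29571 bp from the nearest donor peak and 251347 bp from the nearest C2C12 peak of the 50000-cell list. Distal sites had Esrrb and Lin28a, both factors of pluripotent cells, as the nearest start. The site near Esrrb was 421 bp wide after NT and 393 bp with Toca1, and that near Lin28a 369 and 915 bp. A further 3 newly opened peaks at or in genes of this list were not repeated sites. Outside the list, and chosen after their values were seen, Syce2 of the synaptonemal complex had a promoter site of 290 bp after NT and 975 bp with Toca1, and Pxt1, a testis peroxisomal protein, one of 197 and 436 bp. A site in Hormad2, a meiotic chromosome axis protein, had 241 and 283 bp. None of the 45 Hox genes, 17 retinoic acid pathway genes, 29 genes of actin and its regulators and 14 neuronal genes on the lists had a repeated site at or in the gene. For newly opened peaks that were not repeated the counts were 3, 0, 2 and 1. Enah and the neurofilament gene Ina, described above, are on none of these lists. No annotation was held for 53 of the 385 sites and 423 of the 2502 others described above. Such peaks could not be counted for any list here, so the counts may be incomplete. Of 419 genes with symbols that start with Zfp, 2 held a repeated site, Zfp385a (258 and 762 bp) and Zfp385b (412 and 639 bp). Here 10 newly opened peaks in or at such genes were not repeated sites. Of all newly opened peaks 12.2% were repeated sites. The counts of every list in this paragraph are too small to be told apart from that share.

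Myb had 3 repeated sites, the most of any gene with a site in the promoter or gene-body class. Dip2b held as many, all in the class of other peaks overlapping a gene. Besides the promoter site of 628 bp at chr10:20880543-20881170, gene-body sites of 212 bp at chr10:20878834-20879045 and 280 bp at chr10:20864736-20865015 were open after NT. The Toca1 peaks at the gene-body sites were 472 and 274 bp wide. The nearest donor peak lay 11470 bp from the promoter site. Between the promoter site and the nearer gene-body site the C2C12 list from 50000 cells held a peak of 387 bp, 672 bp from one and 438 bp from the other, so that neither site was far from a C2C12 peak. The 1000-cell list held none within 10 kb of the promoter site. Farther out it held peaks at chr10:20858015-20858242 and chr10:20865744-20865945, the latter close to the gene-body site of 280 bp. Of the 385 sites, 16 formed 8 pairs within 10000 bp. These lay at Myb, Upk3a and Dip2b, nearest to Grb7, Zfp945 and Rps6ka1, and, without held annotation, on chromosomes 8 and 9. No group of 3 lay within that distance.

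**Figure D3:**
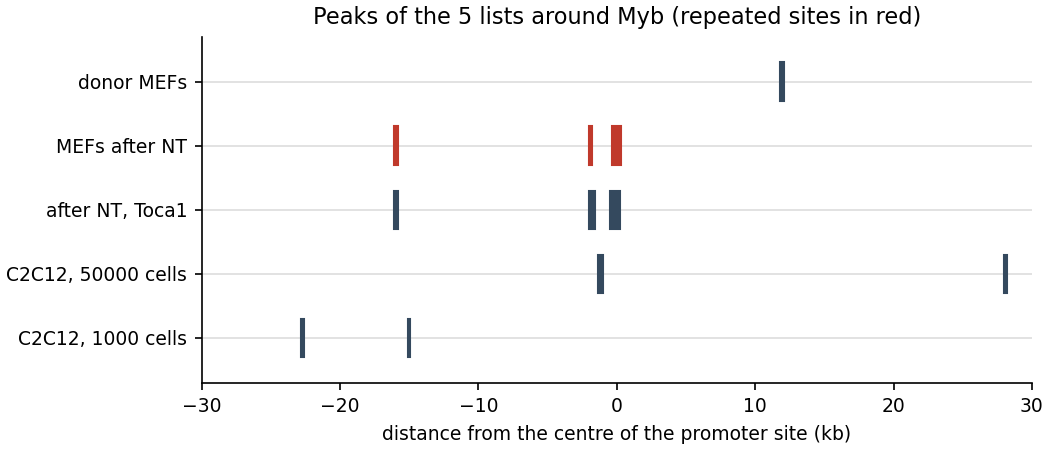
Peaks of the 5 lists within 30 kb of the centre of the Myb promoter site (horizontal axis, kb), 1 row for each list, with repeated sites in red and all other peaks in dark blue. Each of the 3 red sites has a Toca1 peak beneath it, the only donor peak lies near 12 kb to the right, and a C2C12 peak of the 50000-cell list falls between the 2 sites nearest the centre.

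In the gene-body class of the study's annotation, the widest site was in Ppp1r3g, a glycogen-targeting subunit of protein phosphatase. It measured 577 bp after NT and 305 bp with Toca1. Wider sites in genes, such as those in Ern1 and Col23a1 given above, fall in the class of other peaks overlapping a gene. Hepacam, a glial adhesion molecule, had 458 and 764 bp, and Oprd1, the delta opioid receptor, 447 and 532 bp. Of intergenic sites beyond those named, the widest were nearest to Smurf2, a ubiquitin ligase of TGF-beta signalling (635 and 501 bp), and Runx3, a transcription factor of lymphocytes and sensory neurons (613 and 420 bp). The 5 widest intergenic sites were all narrower with Toca1, which is what ranking by control width favours. Of all 142 intergenic sites, 97 (68.3%) were wider with Toca1.

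The share of newly opened peaks found with Toca1 differed between chromosomes. Among those without a C2C12 peak it was 21.6% on chromosome 19 (21 of 97, 14.6% to 30.8%), 21.3% on chromosome 11 (64 of 300, 17.1% to 26.3%) and 20.1% on chromosome 15 (30 of 149, 14.5% to 27.3%). It was 5.68% on chromosome 16 (5 of 88, 2.45% to 12.6%) and 2.33% on chromosome 13 (3 of 129, 0.794% to 6.61%). The intervals of chromosomes 11 and 13, picked after the values of all chromosomes were seen, do not overlap, and no test was made. The median width of the peaks compared was 252 and 232 bp there, and the Toca1 list held 2.15 and 1.74 peaks for each peak after control NT on these 2 chromosomes. Chromosome 15, where the share was high, had a ratio of peak numbers of 1.73.

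**Figure D4:**
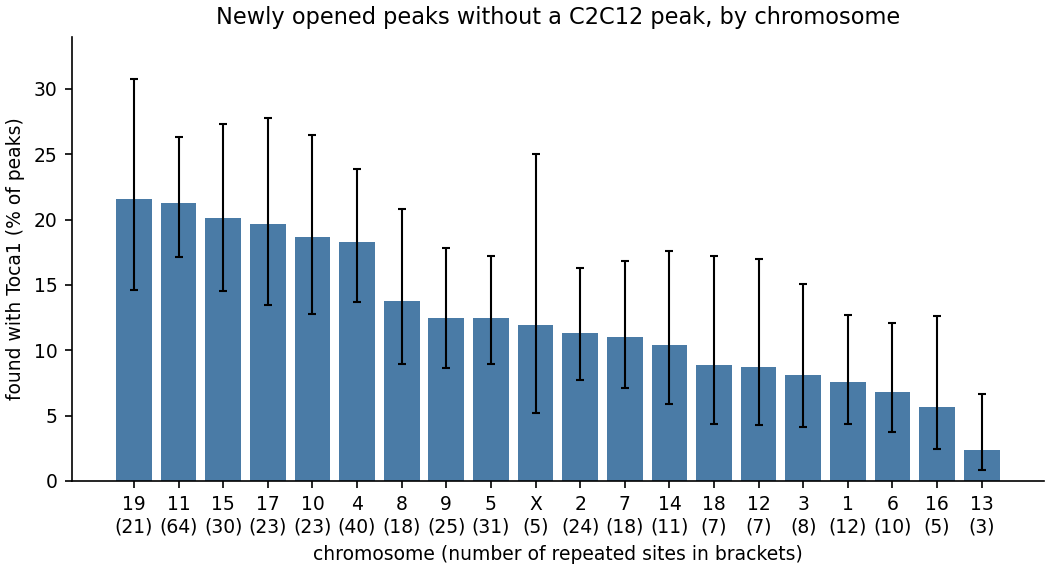
Share of newly opened peaks without a C2C12 peak that overlapped a Toca1 peak (vertical axis, percent), by chromosome in descending order (horizontal axis, number of repeated sites in brackets), with 95% Wilson intervals over peaks as error bars. The bars run from 21.6% on chromosome 19 to 2.33% on chromosome 13, and many intervals overlap.

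Distance from donor chromatin beyond 5000 bp went with little change in the share found with Toca1. It was 13.7% of 633 peaks from 5000 to 10000 bp, 13.1%, 14.9% and 10.6% in the next classes and 11.2% of 241 peaks (7.81% to 15.8%) from 100000 bp on, with overlapping intervals. Repeated sites were a median of 20214 bp away from donor chromatin, and the 2502 others 20455 bp. At the limit, the nearest site was 5007 bp from a donor peak (chr4:137540096-137540339, nearest to Eif4g3), and the nearest peak left out was at 4953 bp (chr4:59212282-59212593). The farthest sites were nearest to Cntnap5a, at 605668 bp, A430085M09Rik and Olfr741. The first had 315 bp after NT and 293 bp with Toca1.

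A C2C12 peak of the 50000-cell list lay under 1000 bp from 25 sites, and 323 sites were at least 5000 bp from any. A site in Ugt8a (chr3:125640785-125641001) touched a C2C12 peak without sharing a base, and a peak left out (chr7:146305529-146306016) shared 14 bp with one. Within 1000 bp of a C2C12 peak, 21.9% of 114 newly opened peaks (15.3% to 30.4%) were found with Toca1, and 10.8% of 472 (8.31% to 13.9%) at 50000 bp or more. Among the newly opened peaks that did overlap a C2C12 peak the share was 52.1% (135 of 259, 46.1% to 58.1%), and among peaks on donor peaks 72.2%. The C2C12 list from 1000 cells, which the choice of sites did not use, overlapped 1.75% of all newly opened peaks and 8.56% of all peaks after NT. It overlapped 6 of the 385 sites (1.56%, 0.716% to 3.36%), against 31 of the 2502 (1.24%, 0.874% to 1.75%). It overlapped 14 of the 135 sites that also had a 50000-cell peak (10.4%, 6.28% to 16.7%). The 6 were nearest to Cdk1, Synj2 and Zswim5, in Pcsk5 and Tcf7l2, and at the promoter of 2900041M22Rik. Repeated and other newly opened sites were thus alike in this list. Both classes were chosen without 50000-cell peaks of the same cell line, which favours low shares in both. Their likeness in this list therefore says little.

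Within 100 kb to either side, repeated sites had a mean of 1.84 other peaks after NT, against 1.42 around the 2502 others. For donor peaks the means were 5.61 and 5.06, for Toca1 peaks other than the overlapping one 3.85 and 3.03, and for C2C12 peaks of the 50000-cell list 6.95 and 6.36. The medians were the same in both classes for donor and C2C12 peaks, at 5 and 6. Of the repeated sites, 27 (7.01%) had no donor peak in this window, against 215 (8.59%) of the 2502 others. Of the repeated sites, 120 were at least 20000 bp from the peaks of both donor MEFs and the 50000-cell C2C12 list. That count was not made for the others. Seen from the Toca1 list, 5855 peaks were 5000 bp or more from donor peaks and on no C2C12 peak, and 363 of them (6.20%) met a repeated site. The peaks that met one were wider, at a median of 492 bp, than those that did not, at 323 bp. A wider Toca1 peak more easily meets a site by construction. How much of this difference comes from that was not tested.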

How the data were processed

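ATAC-seq had been run on 8 libraries, which represent 5 conditions. The authors deposited 1 peak list per condition at a false discovery rate of 0.01, and each list gives positions in bp, with no score. The submitters' processing notes name Bowtie2 2.2.1, Picard, MACS2 2.1 and mm9, and their settings, and whether libraries of a condition were pooled, are not given in the sources used here. The lists of Toca1 and of 1000 C2C12 cells were matched to conditions by name. Starts were changed to 1-based.

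Sites and gene lists were chosen with earlier results of these data known. With 1 list per condition no test was made. Shares have Wilson intervals and medians binomial order-statistic intervals. Where several Toca1 peaks overlapped a site, the one with the longest overlap was paired. Promoter, gene-body and intergenic classes and gene names come from the study's annotation, whose first sheet is held shortened, so no set test was run. Its promoter and gene-body classes cover only genes that gained a peak after NT and had none in donor MEFs. Symbols of all 54 promoter genes matched RefSeq, 50 as protein coding. Named sites were the 10 widest, the 10 with the longest Toca1 peaks, the 15 widest promoters, the 5 widest in gene bodies and between genes, those nearest to or farthest from donor peaks, in pairs, with shared or several Toca1 peaks, or in a gene list, outside chromosome 18. Some of these are not reported here. Alternatives were joined peaks, a minimum width, autosomes, a reciprocal overlap, peaks within 500 bp, other distances and other C2C12 criteria. In simulated data, 1596 of 1596 made sites among 8000 peaks were recovered, with 0 false. Python 3.11.15, numpy 2.4.6, pandas 2.3.3, scipy 1.17.1 and matplotlib 3.10.9 were used. Peak sequences were not analysed here, since no mm9 genome was used.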

Additional observations from a re-analysis of the deposited data

How the results depend on the processing

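In 60 of 72 alternative values the result stayed within the interval of the reported value, or within 1.5 times for the count. With a reciprocal overlap of at least 50%, 202 sites were left, the share found with Toca1 was 7.0%, the median width 350 bp and the ratio of widths 1.11. Under that setting 14.4% of promoter peaks and 6.60% of the others were found with Toca1. When peaks under 250 bp were left out of all lists, the share was 19.2%, the median width 369 bp, the ratio 1.35 and the share of other peaks 17.5%. With Toca1 peaks within 500 bp counted as shared, the share was 15.3% and that of other peaks 13.8%. A reciprocal overlap leaves out pairs of very unequal width and a minimum width the narrow peaks by construction, and further causes were not tested. The promoter share was above that of other peaks in 9 of 9 alternatives, which were chosen after seeing the data, and the ratio was above 1 in 11 of 11. The setting without identical peaks was also chosen then. Leaving out peaks on either C2C12 list sets the 1000-cell share to 0 and gives no value. Joined peaks and any distance from donor peaks were not run for the promoter shares. No paired analysis was possible because each condition has 1 list and the lists carry no replicate numbers, and for the same reason no replicate could be left out. Depth is unknown, so a newly opened peak without a Toca1 peak was not called there at this threshold and is not shown to be closed.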

Other observations

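Axonemal dynein heavy chain genes, which drive the beat of cilia and sperm tails, held 5 repeated sites in 4 genes, a group picked after the values were seen. Dnah2 held a site of 578 bp after NT and 341 bp with Toca1. Dnah1 had 349 and 512 bp, and Dnah7b 228 and 168 bp. In Dnah8, one site had 280 and 325 bp and the other 319 and 316 bp. A further 5 newly opened peaks in such genes were not repeated sites, and peaks without held annotation could not be counted. Of all newly opened peaks 12.2% were repeated sites. Because the group was picked after the values were seen, its counts cannot be judged against that share, and no test of the group was made.

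The following sites were also picked after the values were seen and form no group. Hcn2, a pacemaker channel, had 223 bp after NT and 557 bp with Toca1. Slc18a2, the vesicular monoamine transporter, had 544 and 625 bp, and Trpm3, a cation channel, 303 and 200 bp. Prph, the peripheral neurofilament protein, had 243 and 1113 bp. Msi2, an RNA-binding protein of stem cells, held sites of 265 and 299 bp that had 482 and 905 bp with Toca1, and Tcf7l2, a Wnt effector, held sites of 308 and 365 bp with 180 and 342 bp.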
